A study of Homo sapiens with 8 samples.

Results

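The genes described here encode 5 components of the phagocyte NADPH oxidase, CYBA, CYBB, NCF1, NCF4 and RAC2. They were chosen by symbol, as the rows with these names in the gene counts of all 8 libraries, and make up 5 of the 37526 gene names listed for every library. RNA was sequenced from NB4 cells, an acute promyelocytic leukemia (APL) line that carries the PML/RARα fusion, with 2 libraries in each of 4 groups. shNC and shKDM3B were untreated cells stably transduced with pLVX-shRNA2-puro, as the control or with a short hairpin RNA (shRNA) against KDM3B, a histone demethylase. shNC_ATRA and shKDM3B_ATRA were the same cells treated with 1 µM all-trans retinoic acid (ATRA), for which the labels name 24 and 48 h without saying which was used for these libraries. The labels call the control an empty vector and the study's methods a scrambled shRNA, and which of the study's 2 KDM3B shRNAs was sequenced was not stated. The study's methods speak of 2 replicates of the RNA-seq experiments, and no source used here says that the libraries of a group came from separate cultures, so every P-value measures the spread between these libraries, which may be technical.

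The NADPH oxidase is the enzyme with which neutrophils and macrophages make superoxide, the respiratory burst that helps to kill ingested microbes. CYBB is the catalytic subunit, a membrane flavocytochrome that passes electrons from NADPH to oxygen, and CYBA is the smaller membrane subunit that stabilises it. NCF1 is the cytosolic organiser that carries the other soluble subunits to the membrane when it is phosphorylated, and NCF4 binds phosphoinositides of the phagosome. RAC2 is the GTPase of blood cells that completes the active complex. Loss of CYBB, CYBA, NCF1 or NCF4 causes chronic granulomatous disease, and a rise in oxidase activity is a classical sign that APL cells mature under ATRA.

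CYBA lies on chromosome 16 (88643275 to 88651083, minus strand, hg38) and CYBB on chromosome X (37780018 to 37813461, plus strand), and their canonical transcripts have 6 and 13 exons. NCF1 lies on chromosome 7 (74774011 to 74789315, plus strand, 11 exons). NCF4 and RAC2 both lie on chromosome 22, NCF4 from 36860988 to 36878017 on the plus strand with 10 exons and RAC2 from 37225270 to 37259594 on the minus strand with 7 exons. Of the 5 genes, 3 had an entry in the RefSeq promoter table (GRCh38.p14, 250 bases before to 50 after the start): CYBA, CYBB and NCF1. Their promoters are shown because these genes were called higher with ATRA below, by folds that differed widely. Capitals mark TTCCTC, the reverse of the PU.1-type motif GAGGAA, in CYBB and NCF1, and the GC box GGGCGG or its reverse CCGCCC in CYBA.
CYBB, chrX:37779809-37780108, plus strand: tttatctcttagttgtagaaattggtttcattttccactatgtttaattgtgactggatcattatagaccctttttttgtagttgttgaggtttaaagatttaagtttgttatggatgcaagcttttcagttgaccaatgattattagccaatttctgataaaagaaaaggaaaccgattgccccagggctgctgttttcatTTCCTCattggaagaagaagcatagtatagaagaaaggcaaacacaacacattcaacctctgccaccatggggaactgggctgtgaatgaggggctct
NCF1, chr7:74773761-74774060, plus strand: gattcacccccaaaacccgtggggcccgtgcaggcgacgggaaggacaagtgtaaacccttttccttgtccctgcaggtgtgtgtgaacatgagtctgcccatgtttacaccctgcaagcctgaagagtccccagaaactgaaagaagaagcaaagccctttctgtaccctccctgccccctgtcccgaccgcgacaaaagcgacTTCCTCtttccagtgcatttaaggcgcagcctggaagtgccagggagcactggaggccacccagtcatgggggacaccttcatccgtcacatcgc
CYBA, chr16:88651004-88651303, minus strand: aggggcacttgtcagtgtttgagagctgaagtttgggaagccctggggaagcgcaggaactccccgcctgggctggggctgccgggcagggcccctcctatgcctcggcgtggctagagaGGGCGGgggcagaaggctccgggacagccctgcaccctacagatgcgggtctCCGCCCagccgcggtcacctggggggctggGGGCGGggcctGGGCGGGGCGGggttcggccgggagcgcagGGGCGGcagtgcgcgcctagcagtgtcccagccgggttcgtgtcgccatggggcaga
PU.1 is the ETS factor that drives myeloid genes. Its motif GAGGAA lay on the strand opposite to the gene in CYBB and NCF1. Read along the gene, the match began 48 bases upstream of the RefSeq start in CYBB and 45 bases upstream in NCF1. For CYBB the RefSeq start is not the gene start given above, which is that of GENCODE. The promoter of CYBA held no GAGGAA on either strand within these 300 bases, and held 6 GC boxes, 2 of which share a base. CYBB also had 4 matches to CCAAT, the CCAAT box, counted on both strands. AGGTCA, the retinoid receptor motif, was not found in any of the 3 sequences on either strand. Among 35116 promoters of the same length, 27.9% held GAGGAA, 13.8% AGGTCA, 34.6% CCAAT and 45.0% GGGCGG, so a single match is common and describes letters only.

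NCF1 needs a caution before its values, because the genome holds 2 near-identical copies, NCF1B and NCF1C, which are annotated without a coding product. The textbook difference is a GTGT at the start of exon 2 that is GT in the copies. It is shown here in capitals, in the exons of hg38.
NCF1, chr7:74777267-74777347, plus strand: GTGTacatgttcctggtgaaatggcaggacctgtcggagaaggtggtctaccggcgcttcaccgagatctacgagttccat
NCF1B, chr7:73223878-73223956, plus strand: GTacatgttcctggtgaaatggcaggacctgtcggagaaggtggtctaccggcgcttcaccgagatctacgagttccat
NCF1C, chr7:75168632-75168710, minus strand: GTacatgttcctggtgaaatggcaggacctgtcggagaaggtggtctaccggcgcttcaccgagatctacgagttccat
The exon had 81 bases in NCF1 and 79 in NCF1B and NCF1C, and the bases after the capitals were identical in all 3. Of the 1200 windows of 150 bases, the read length, in the canonical NCF1 transcript, 47.3% occurred unchanged in NCF1B or NCF1C, whereas 0% of those of CYBA, CYBB, NCF4 and RAC2 occurred in another gene. NCF4 overlapped the antisense gene NCF4-AS1 over 1.21% of its exon bases, and without a stated strand setting reads of the pair cannot be told apart there.

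Gene counts summed to 9708739 to 33017787 pairs per library, and the lowest count of any of the 5 genes was 91, for NCF1 in shKDM3B replicate 1. KDM3B, the target, had 187 and 188 CPM (counts per 1000000 pairs on genes, scaled by the trimmed mean of M-values, TMM, over all 8 libraries) in shNC and 76.3 and 86.2 in shKDM3B, and 196 and 121 CPM in shNC_ATRA and 52.5 and 57.4 in shKDM3B_ATRA. KDM3B was thus lower in both knockdown groups, with no overlap. Some libraries stood apart in the share of pairs that aligned outside genes, taken over pairs on genes, outside genes and ambiguous between genes. This share was 50.02%, 51.4% and 51.0% in shNC_ATRA replicate 2 and shKDM3B_ATRA replicates 1 and 2. It was 8.49% to 9.62% in the other 5, shNC_ATRA replicate 1 included. Of 5 promyelocyte markers, MPO had a mean of 673 to 8928 CPM by group and CTSG 1.85 to 138, whereas ELANE, PRTN3 and AZU1 stayed under a mean of 1 CPM in every group. The 10 markers of monocytes, lymphocytes, erythroid cells and platelets reached at most 9.25 CPM, and 4 of them had 0 counts in every library.

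The first comparison was shNC_ATRA with shNC, which asks what ATRA does to the oxidase genes in control cells. Across treatment the libraries differed in the gene names listed, 56470 untreated and 56609 with ATRA, of which 37526 are shared. Treatment and that difference cannot be told apart. All 5 genes were called higher, where a call means a P-value under 0.05 in edgeR's quasi-likelihood test and a fold change of at least 1.5. These are the cutoffs of the study, which applied them to DESeq2. Of 12429 genes tested, 15.0% were called higher, and the median log2 fold change was 1.49 over the 5 genes and 0.02 over all. In bulk RNA, a change in the number of cells of a type and a change in RNA per cell cannot be told apart.
The catalytic subunit CYBB had 338 and 315 CPM in shNC and 1811 and 2023 in shNC_ATRA. Its lowest treated library was above its highest untreated library. The log2 fold change was 2.59 ± 0.20 (SE, n = 2 per group), or 6.01-fold, with an edgeR Benjamini-Hochberg adjusted p of 4.68e-04.
CYBA, its membrane partner, had 191 and 172 CPM in shNC and 457 and 335 in shNC_ATRA. The groups were separate, but the treated libraries lay farther apart than the untreated ones. CYBA rose 2.24-fold, a log2 change of 1.16 ± 0.23 (edgeR adjusted p = 0.0175).
NCF1, the organiser, had 16.4 and 11.4 CPM in shNC and 1132 and 747 in shNC_ATRA. The log2 fold change was 6.11 ± 0.35, or 69.2-fold, the largest fold among the 5 genes (edgeR adjusted p = 1.59e-04). Summed with NCF1B and NCF1C, the change was 6.25.
RAC2, the GTPase, had 82.3 and 96.5 CPM in shNC and 243 and 246 in shNC_ATRA, and the treated libraries differed little from each other. It rose 2.80-fold, a log2 change of 1.49 ± 0.21 (edgeR adjusted p = 0.00449).
NCF4, the phosphoinositide-binding subunit, had 15.6 and 11.5 CPM in shNC and 19.3 and 28.6 in shNC_ATRA. These groups did not overlap, yet the gap between them was smaller than the gap between the treated libraries. NCF4 was called, with a log2 change of 0.86 ± 0.31 (edgeR adjusted p = 0.126). It lost the call without shNC replicate 1, shNC replicate 2 or shNC_ATRA replicate 2, where the log2 change was 1.07, 0.64 and 0.52, and kept it without shNC_ATRA replicate 1, at 1.11.
At an adjusted p under 0.05, 4 of the 5 genes were called higher, against 7.84% of all genes. With 1 treated library left out, the other 4 genes stayed called, in fits whose spread comes from the 2 shNC libraries alone and in which the lone treated library is assumed to vary like them. Without shNC_ATRA replicate 2 the log2 changes were 2.48 for CYBB, 1.34 for CYBA, 6.36 for NCF1 and 1.45 for RAC2, where 12.9% of all genes were called higher. Without shNC_ATRA replicate 1 they were 2.67, 0.92, 5.79 and 1.497, where 21.4% were.

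**Figure D1:**
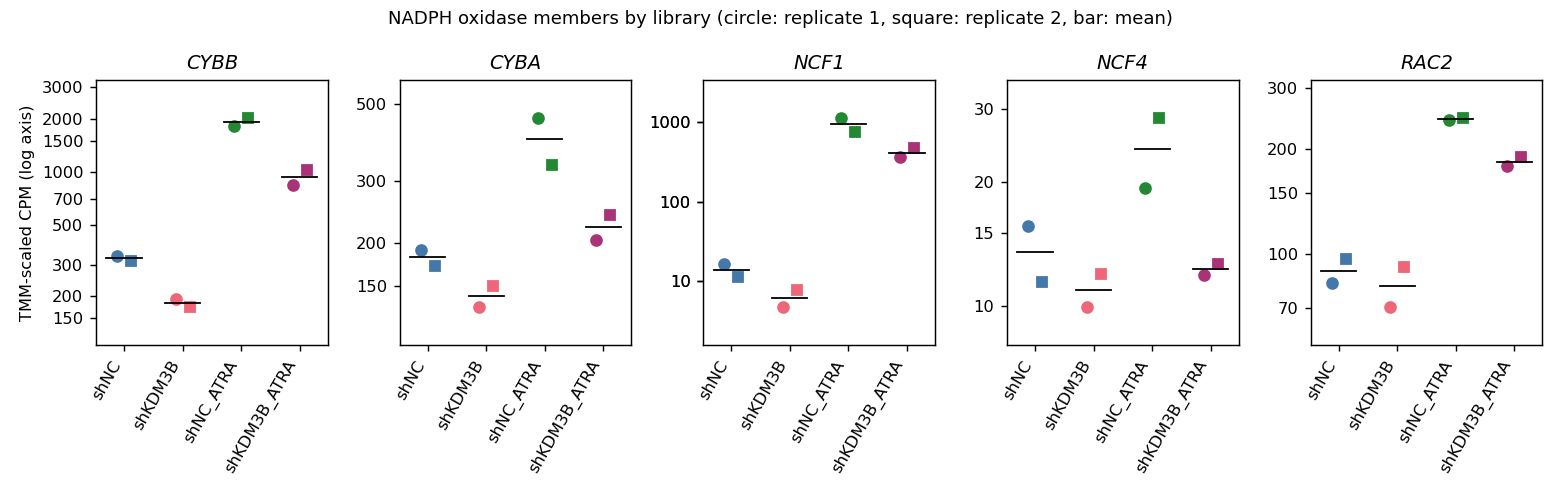
TMM-scaled CPM of the 5 oxidase genes on log axes, with 1 panel per gene and 1 point per library (circle, replicate 1, and square, replicate 2), the bar being the group mean of 2 libraries. In every panel both shNC_ATRA points lie above all others, with NCF1 going from 16.4 and 11.4 in shNC to 1132 and 747, while NCF4 covers the narrowest range.

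The same treatment in knockdown cells, shKDM3B_ATRA against shKDM3B, gave 4 of 5 genes called higher, and these 4 also passed at an adjusted p under 0.05. Here 24.0% of the 12756 genes tested were called higher, 23.0% by the adjusted p, and both libraries of the treated group were among those with the high share outside genes, so the treatment and that share cannot be told apart in this comparison.
CYBB had 192 and 172 CPM in shKDM3B and 842 and 1032 in shKDM3B_ATRA, and rose by a log2 change of 2.42 ± 0.14, or 5.33-fold (edgeR adjusted p = 1.26e-06). NCF1 had 4.68 and 7.64 CPM in shKDM3B and 359 and 465 in shKDM3B_ATRA, a log2 change of 6.08 ± 0.25, or 67.8-fold (edgeR adjusted p = 1.39e-07). For both genes the treated libraries were far above the untreated ones.
RAC2 had 70.2 and 92.0 CPM in shKDM3B and 178 and 189.8 in shKDM3B_ATRA (log2 change 1.23 ± 0.15, edgeR adjusted p = 1.43e-04). CYBA had 130.3 and 150.2 CPM in shKDM3B and 203 and 239.9 in shKDM3B_ATRA (log2 change 0.71 ± 0.14, edgeR adjusted p = 0.00225). Neither gene overlapped between the groups, and CYBA alone fell under the fold threshold without shKDM3B replicate 1, at 0.56.
NCF4 was the exception and was not called. It had 9.92 and 11.9 CPM in shKDM3B and 11.9 and 12.7 in shKDM3B_ATRA, groups that overlap, with a log2 difference of 0.22 and a 95% interval from -0.26 to 0.69 (edgeR adjusted p = 0.419).

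Knockdown of KDM3B was first compared in untreated cells, shKDM3B with shNC, which shares its control libraries with the first comparison. CYBB and NCF1 were called lower, 2 of 5 genes, where 3.53% of 13855 genes were called lower. The median log2 change was -0.37 over the 5 genes and 0.00 over all. Neither gene passed at an adjusted p in edgeR, and both passed in DESeq2.
CYBB had 338 and 315 CPM in shNC and 192 and 172 in shKDM3B, without overlap and with little spread inside each group. CYBB fell by 0.84 on the log2 scale (SE 0.14, 95% interval from -1.17 to -0.51, edgeR adjusted p = 0.106). The change stayed between -0.92 and -0.78 when each library was left out.
NCF1 had 16.4 and 11.4 CPM in shNC and 4.68 and 7.64 in shKDM3B, again without overlap but at a low level. NCF1 fell by 1.16 on the log2 scale (SE 0.31, 95% interval from -1.87 to -0.45, edgeR adjusted p = 0.214), and by 1.36 when summed with its copies. Its change ran from -1.58 to -0.86 over the same 4 settings, a wider range than that of CYBB.
The other 3 genes were not called. CYBA had 191 and 172 CPM against 130.3 and 150.2, groups that do not overlap, with a log2 difference of -0.37 that was under the fold threshold (95% interval from -0.72 to -0.02, edgeR adjusted p = 0.458). NCF4 had 15.6 and 11.5 CPM against 9.92 and 11.9, and RAC2 had 82.3 and 96.5 against 70.2 and 92.0, so the groups of both overlapped. Their log2 differences were -0.30, with a 95% interval from -0.86 to 0.25, and -0.14, from -0.56 to 0.28. With 1 library omitted, NCF4 ran from -0.51 to -0.064, CYBA from -0.49 to -0.27 and RAC2 from -0.36 to 0.041, the last without shKDM3B replicate 1.
In this comparison edgeR gave 0 of the 5 genes an adjusted p under 0.05. It gave 3 of the 5 a P under 0.05, as it did 1411 of all 13855 genes. By the adjusted p it called 3 of all genes lower, or 0.0217%. DESeq2 gave 278 genes an adjusted p under 0.05, among them CYBB (adjusted p = 4.55e-04) and NCF1 (adjusted p = 0.0308), where 0.958% of genes were called lower on that rule.

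In ATRA-treated cells, shKDM3B_ATRA against shNC_ATRA, 4 of 5 genes were called lower, against 4.37% of 14281 genes. They were CYBB, CYBA, NCF1 and NCF4, the median log2 change being -0.96 over the 5 genes and 0.03 over all. With the replicate number as a block, CYBB alone was called, at -1.03, where 2.42% of all genes were called lower, and CYBA, NCF1 and NCF4 had log2 differences of -0.82, -1.17 and -0.93.
CYBB had 1811 and 2023 CPM in shNC_ATRA and 842 and 1032 in shKDM3B_ATRA. CYBB fell by 1.03 on the log2 scale, with a SE of 0.17 and a 95% interval from -1.51 to -0.55. The treated knockdown libraries lay below both treated control libraries and above all 4 untreated libraries.
CYBA had 457 and 335 CPM in shNC_ATRA and 203 and 239.9 in shKDM3B_ATRA, and fell by 0.84 on the log2 scale (SE 0.22, 95% interval from -1.47 to -0.20). NCF1 had 1132 and 747 CPM against 359 and 465, and fell by 1.19 (SE 0.29, 95% interval from -2.02 to -0.36). In these 2 genes the control libraries differed by a larger ratio than in CYBB, with the lower control library being the one with the high share outside genes.
NCF4 had 19.3 and 28.6 CPM in shNC_ATRA and 11.9 and 12.7 in shKDM3B_ATRA, and fell by 0.96 (SE 0.29, 95% interval from -1.78 to -0.13). In NCF4 the higher control library was the one with the high share outside genes. RAC2 had 243 and 246 CPM against 178 and 189.8, with a log2 difference of -0.41 (95% interval from -0.72 to -0.09) that did not reach the fold threshold.
All 5 genes had an edgeR adjusted p of 0.502 here. edgeR gave 0 genes of the whole table an adjusted p under 0.05 and 1383 a P under 0.05, and DESeq2 gave 464 an adjusted p under 0.05. With DESeq2, CYBB (adjusted p = 2.75e-07), NCF1 (adjusted p = 0.00474) and CYBA (adjusted p = 0.0276) passed, where 1.87% of genes were called lower on that rule. With 1 control library left out, the spread comes from the 2 shKDM3B_ATRA libraries alone and the lone control is assumed to vary like them. Without shNC_ATRA replicate 1, where all 3 remaining libraries have the high share outside genes, 4 genes were called on that footing, with log2 changes of -1.10 for CYBB, -0.59 for CYBA, -0.85 for NCF1 and -1.21 for NCF4, where 8.19% of all genes were called lower. Without shNC_ATRA replicate 2 the same 4 were called, at -0.95, -1.05, -1.46 and -0.65, where 13.3% of all genes were called lower. With 1 knockdown library left out, the spread comes from the 2 shNC_ATRA libraries alone, of which 9.36% and 50.02% of pairs were outside genes, and the lone knockdown library is assumed to vary like them. Without shKDM3B_ATRA replicate 1 none was called, against 0.624% of all genes, and without shKDM3B_ATRA replicate 2 CYBB alone was called, at -1.18, against 1.45%, while the log2 changes of CYBB, CYBA, NCF1 and NCF4 stayed between -1.38 and -0.72 in these 2 settings.

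**Figure D2:**
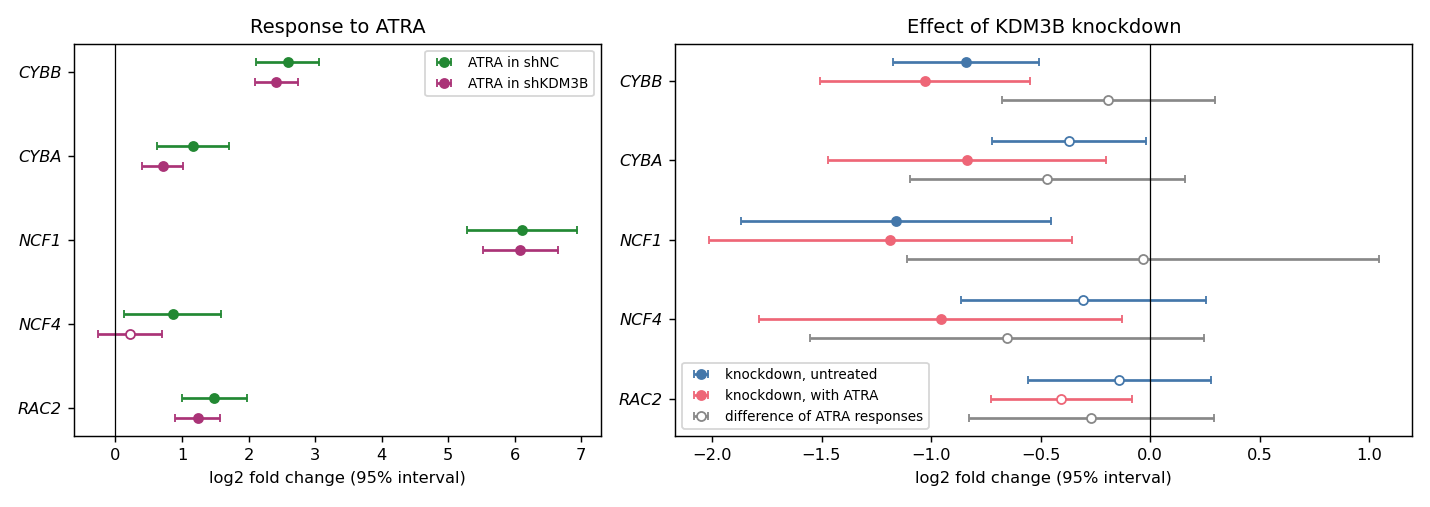
Log2 fold changes of the 5 oxidase genes with 95% intervals from edgeR's quasi-likelihood fits (2 libraries per group), for the response to ATRA on the left and the effect of KDM3B knockdown on the right, filled points being called (P under 0.05 and at least 1.5-fold). ATRA gives 6.11 and 6.08 for NCF1 in control and knockdown cells, the knockdown points of all 5 genes lie below 0, and every interval of the difference of ATRA responses (grey) includes 0.

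Whether the knockdown changed the response to ATRA was tested as the difference of the 2 responses over all 8 libraries. No oxidase gene was called, 0 of 5 in edgeR's quasi-likelihood test, where 3.99% of 13528 genes were called in either direction and 0 genes had an adjusted p under 0.05 (607 at P under 0.05). DESeq2 gave 25 genes an adjusted p under 0.05, all of them past 1.5-fold (0.235% of those tested), and 0 of the 5.
The response of CYBB differed by -0.19 on the log2 scale, with a 95% interval from -0.68 to 0.29, and that of NCF1 by -0.03, from -1.11 to 1.04. The sign for NCF1 depended on the scaling and on the library left out. The differences were -0.27 for RAC2 (from -0.83 to 0.29), -0.47 for CYBA (from -1.10 to 0.16) and -0.65 for NCF4 (from -1.55 to 0.24). All 5 intervals included 0, and all 5 reached past a 1.5-fold smaller response in knockdown cells. Over the 8 fits that omit 1 library, the difference ran from -0.68 to -0.22 for CYBA, -0.91 to -0.36 for NCF4, -0.34 to -0.020 for CYBB and -0.45 to -0.0038 for RAC2. CYBA was called only at -0.68, without shNC_ATRA replicate 2, where 17.4% of all genes were called in either direction, and NCF4 only at -0.91, without shNC_ATRA replicate 1, where 5.65% were. Each was at its smallest in the setting in which the other was called, at -0.22 for CYBA and -0.36 for NCF4. In these fits shNC_ATRA is a single library, the spread comes from the other 3 groups, and the lone library is assumed to vary like them.

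Markers of granulocyte maturation were set beside the oxidase genes by their levels. The 4 markers ITGAM, ITGAX, FPR1 and CSF3R summed to 93.4 to 103 CPM in shNC, 68.7 to 71.9 in shKDM3B, 491 to 592 in shNC_ATRA and 291 to 325 in shKDM3B_ATRA, with 3 of 4 above 1 CPM in each group and all 4 in shNC_ATRA. CSF3R and ITGAM carried most of these sums in every group, and the members did not all follow them. ITGAX had 5.72 and 10.9 CPM in shNC and 4.06 and 8.47 in shKDM3B, groups that overlap. FPR1 had 5 and 7 counts in shNC, 36 and 33 in shNC_ATRA, 0 and 2 in shKDM3B and 0 and 3 in shKDM3B_ATRA. In CPM, FPR1 in shKDM3B_ATRA (0 and 0.301) overlapped both shNC (0.251 and 0.294) and shKDM3B (0 and 0.0614). The 5 promyelocyte markers summed to 4389 to 5459.7 CPM in shNC, 8489.6 to 9645 in shKDM3B, 619 to 734 in shNC_ATRA and 2223 to 3132 in shKDM3B_ATRA, almost all of it MPO. CTSG, the next most abundant of them, went the other way in treated cells, with 2.31 to 4.11 CPM in shNC_ATRA and 1.71 to 2.001 in shKDM3B_ATRA. The 5 oxidase genes summed to 643 and 606, 407 and 434, 3662 and 3380.4, and 1595 and 1939 CPM in the same order. The part of cell maturity in the oxidase levels was not tested.

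Levels of different genes were compared per length, as CPM per kilobase of the canonical transcript, and the order depended on that length. In shNC the order was CYBA (262 ± 19.9, SD, n = 2), CYBB (76.4 ± 3.74), RAC2 (60.7 ± 6.80), NCF1 (10.3 ± 2.65) and NCF4 (9.82 ± 2.13). NCF1 and NCF4 differed by less than their spread. In shKDM3B the order was CYBA (203 ± 20.3), RAC2 (55.1 ± 10.46), CYBB (42.6 ± 3.25), NCF4 (7.93 ± 1.04) and NCF1 (4.56 ± 1.55), and no neighbours overlapped between libraries. The places of NCF1 rest on the counts of that name alone. Summed with NCF1B and NCF1C over the NCF1 length, it had 20.9 ± 7.19 CPM per kilobase in shNC, above NCF4, and 8.03 ± 3.28 in shKDM3B, where its libraries overlapped those of NCF4.
In shNC_ATRA, NCF1 headed the order at 696 ± 202 CPM per kilobase, followed by CYBA (573 ± 125), CYBB (448 ± 35.1), RAC2 (166 ± 1.81) and NCF4 (17.4 ± 4.76). NCF1 and CYBA differed by less than their spread, but NCF1 was ahead in each library. In shKDM3B_ATRA the order was CYBA (319.9 ± 37.8), NCF1 (306 ± 55.2), CYBB (219 ± 31.4), RAC2 (125 ± 5.47) and NCF4 (8.91 ± 0.39), and CYBA and NCF1 again differed by less than their spread. The summed value, an alternative added after the data were seen, was 1555 ± 423 in shNC_ATRA and 668 ± 151 in shKDM3B_ATRA, above CYBA in both. The canonical transcript of CYBA has 692 bases, whereas the union of its annotated exons has 4161. Over the exon unions, an alternative added after the data were seen, CYBB headed the order in all 4 groups, at 67.95 ± 3.33 against 43.6 ± 3.31 for CYBA in shNC, 37.9 ± 2.89 against 33.7 ± 3.38 in shKDM3B, where their libraries overlapped, 399 ± 31.2 in shNC_ATRA and 195.01 ± 27.9 in shKDM3B_ATRA. In both treated groups NCF1 was then next, at 275 ± 79.7 and 121 ± 21.8, above CYBA at 95.2 ± 20.7 and 53.2 ± 6.29. The ratio of CYBB to CYBA was 0.186 to 0.297 in the 4 untreated libraries and 0.641 to 0.977 in the 4 treated ones per kilobase of canonical transcript, and 0.994 to 1.59 and 3.43 to 5.23 per kilobase of exon union. The ratio of NCF1 alone to NCF4 per kilobase of canonical transcript went from between 0.482 and 1.07 without ATRA to between 26.7 and 59.9 with it. The 5 genes thus did not change in proportion.

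**Figure D3:**
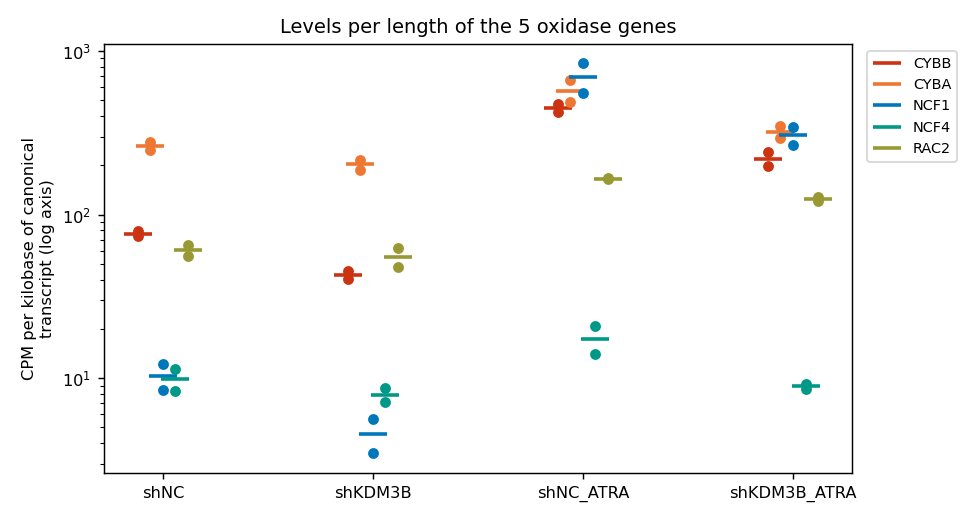
CPM per kilobase of canonical transcript on a log axis for the 5 oxidase genes in the 4 groups, with 1 point per library and a bar at the mean of 2 libraries. NCF1, on its own counts without the copies, moves from 10.3 in shNC, level with NCF4 at 9.82, to 696 in shNC_ATRA, above CYBA at 573 on this length, whereas NCF4 reaches 17.4.

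The copies of NCF1 followed it. NCF1B and NCF1C were called higher with ATRA in control cells (log2 changes 6.18 and 6.60) and in knockdown cells (6.42 and 6.99), and lower with knockdown in untreated cells (-1.48 and -1.69) and with ATRA (-1.20 and -1.28). NCF1 took 44.1% to 60.7% of the pairs on the 3 names. The share was 46.9% (exact 95% interval 43.2% to 50.7%, 327 of 697 pairs) in shNC replicate 1 and 60.7% (52.4% to 68.5%, 91 of 150 pairs) in shKDM3B replicate 1, the extremes of the untreated libraries. With ATRA it was 44.1% to 47.5%, with intervals that cover counting error only. Because pairs in the shared stretches align to several places, the counts of each of the 3 names are uncertain. The log2 changes of the sum were 6.25 with ATRA in control cells, 6.40 with ATRA in knockdown cells, -1.36 with knockdown in untreated cells, -1.22 with knockdown in treated cells and 0.14 for the difference of responses.

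**Figure D4:**
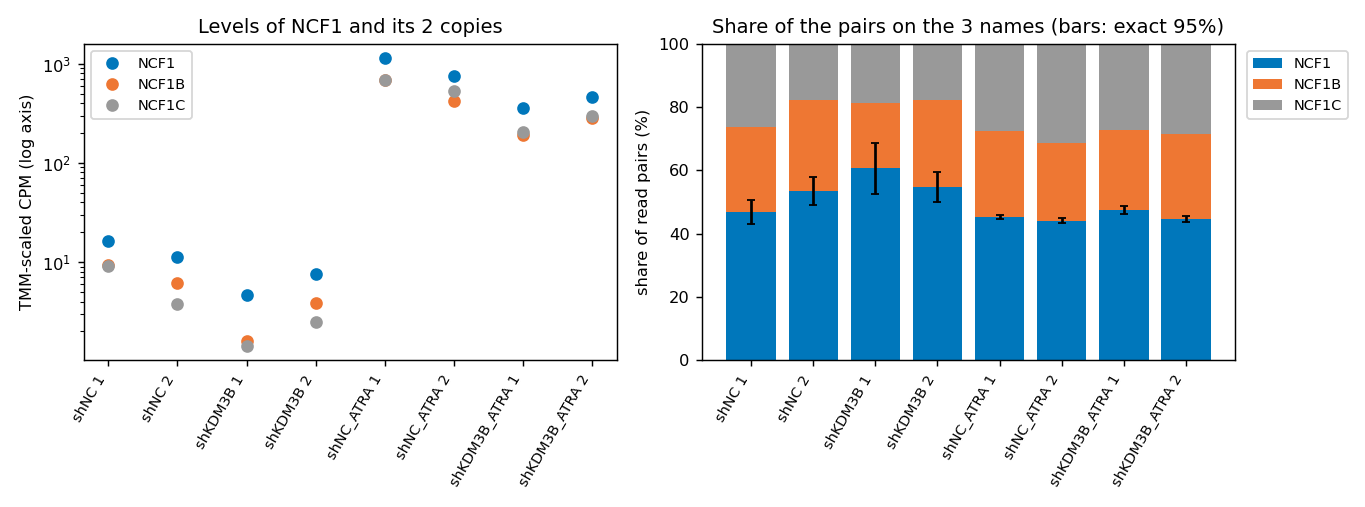
NCF1, NCF1B and NCF1C by library, as TMM-scaled CPM on a log axis (left) and as shares of the read pairs on the 3 names (right), the error bars being exact 95% intervals of the NCF1 share. All 3 names rise together with ATRA, and the share of NCF1 stays between 44.1% and 60.7%.

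Among 4 further partners of the oxidase, HVCN1, the proton channel that balances charge during the burst, fell with ATRA. HVCN1 had 39.7 to 71.6 CPM in the 4 untreated libraries and 7.37 to 10.7 in the treated ones, with called log2 changes of -2.12 in control and -2.75 in knockdown cells. RAP1A, a GTPase that copurifies with the flavocytochrome, rose by 1.05 and 1.11. CYBC1, the chaperone of CYBB, listed in the files by its older symbol C17orf62, rose by 0.78 in control cells and was not called in knockdown cells (0.47). RAC1, the widely expressed Rac, was not called in any comparison (log2 differences from -0.27 to 0.17), and knockdown called none of these 4.

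The other genes of the pathway were counted by list. Of 67 such genes tested in control cells with ATRA, the copies, other parts and paralogs included, 23 were called higher and 8 lower, where 15.0% and 10.8% of all genes were. The shares of all genes called higher and lower were 24.0% and 18.3% with ATRA in knockdown cells, 3.48% and 3.53% with knockdown in untreated cells and 2.42% and 4.37% with knockdown in treated cells. Among 15 kinases and lipid enzymes upstream of assembly, 7 were called higher and 0 lower, led by PIK3R5 (2.83), a regulator of the PI3K that G protein-coupled receptors activate, PRKCZ (2.09), an atypical protein kinase C, and PAK1 (1.90), a kinase that Rac activates. In knockdown cells 8 of 15 rose, led by PIK3R5 (3.39), PAK1 (1.99) and PIK3CG (1.43). Knockdown called PIK3R5 (-1.28) lower and PRKCA (0.85) higher without ATRA, and none of the 15 with it.
Among 8 enzymes of NADPH supply, 3 rose in control cells, the pentose phosphate enzymes PGD (2.45) and TKT (1.98) and the dehydrogenase IDH1 (1.11). The same 3 rose in knockdown cells (2.20, 1.77 and 1.14), together with RPE (0.73). Knockdown called IDH1 (0.79) higher without ATRA and none with it.
Of 11 regulators of Rac, a list that includes RAC3, control cells had VAV1 (0.74), an exchange factor, and ARHGDIB (0.75), a GDP-dissociation inhibitor, called higher, and TIAM1 (-1.42), RAC3 (-1.31) and BCR (-1.28) called lower. Knockdown cells had 3 higher and 5 lower, the largest changes being those of TIAM1 (-3.16), ABR (-2.43) and RAC3 (-2.12). TIAM1 had 145 and 134 counts in shKDM3B and 1 and 11 in shKDM3B_ATRA. ABR had 59 and 236 counts in shKDM3B and 7 and 11 in shKDM3B_ATRA. In shNC_ATRA, ABR had 49 counts in replicate 1 and 3 in replicate 2, the library with the high share outside genes. The part of that share in these changes was not tested. Knockdown lowered VAV3 (-0.84) and ARHGAP25 (-0.72) without ATRA, and ARHGAP25 (-1.24) and RAC3 (-0.76) with it.
Of 12 transcription regulators, 4 were called higher and 3 lower with ATRA in control cells, and the 3 largest changes were rises in CEBPB (3.20), IRF1 (2.73) and CEBPE (2.64), CEBPB and CEBPE being C/EBP factors, regulators of granulocyte genes. CEBPA, another C/EBP factor of the list, was called lower, at -0.89 in control and -0.83 in knockdown cells (edgeR adjusted p = 0.0472 and 3.90e-04), and is named here after its values were seen. SPI1, the gene for PU.1, was singled out after its values were seen, for the motif above. It had 139 and 173 CPM in shNC and 495 and 304 in shNC_ATRA, and rose by 1.39 (edgeR adjusted p = 0.0192), and in knockdown cells it rose by 0.92 (edgeR adjusted p = 0.00220). Knockdown did not call SPI1, with log2 differences of -0.24 in untreated cells, where the groups overlapped, and -0.72 in treated cells, where they did not (95% interval from -1.58 to 0.13). In knockdown cells again 4 were higher and 3 lower, led by IRF1 (3.48), CEBPE (2.13) and CEBPB (2.02). With knockdown IRF8 (-1.28) and IRF1 (-0.90) were called lower and SATB1 (1.12) higher in untreated cells, and CEBPB (-1.73) was called lower and SATB1 (1.14) higher in treated cells.
Of 14 genes that make or remove reactive oxygen species, ATRA lowered MPO (-2.81), the peroxidase of azurophil granules, and raised PRDX5 (0.97), a peroxiredoxin, and GSR (0.84), glutathione reductase, in control cells. In knockdown cells MPO (-1.69), GPX4 (-1.46), GPX1 (-0.93), PRDX1 (-0.59) and PRDX2 (-0.58) were called lower and GSR (0.77) higher. GPX4 had 96.7 and 53.0 CPM in shNC_ATRA replicates 1 and 2, the second with the high share outside genes. It had 37.7 and 46.7 CPM in shKDM3B_ATRA. The part of that share in the fall of GPX4 was not tested. Knockdown called MPO higher both without ATRA (0.89) and with it (1.99), and PRDX5 (-1.05) and PRDX2 (-0.65) lower with it.

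**Figure D5:**
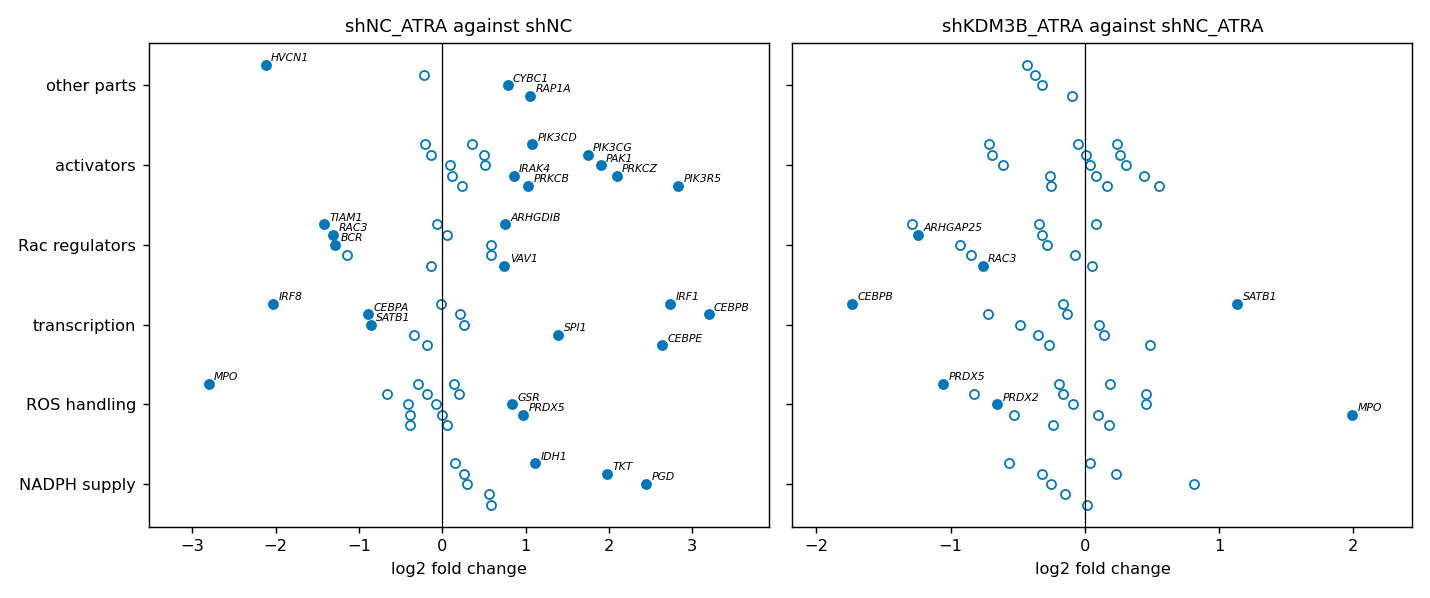
Log2 fold changes of the genes of 6 lists (other oxidase parts, activators, Rac regulators, transcription regulators, reactive oxygen species handling and NADPH supply), for ATRA in control cells (left) and for knockdown in treated cells (right), with 1 point per gene tested, filled and named where called. On the left CEBPB (3.20) lies farthest to the right and MPO (-2.81) farthest to the left, and on the right MPO (1.99) and CEBPB (-1.73) are the extremes.

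Of 10 genes for other NADPH oxidases and their partners, 1 to 3 passed the low-count filter in each comparison, NOX1, NOXO1 and NOXA1. NOXA1 had 0.976 to 1.56 CPM in the untreated and 3.22 to 3.49 in the treated libraries, and was called higher with ATRA in control (1.56) and knockdown cells (1.42). NOX1, a catalytic subunit of epithelia, had 0 counts in all 4 untreated libraries and in shNC_ATRA replicate 1, and 23, 8 and 11 counts in shNC_ATRA replicate 2 and the 2 shKDM3B_ATRA libraries. NOXO1, its organiser, had 2, 8, 0 and 0 counts in the untreated libraries, 3 and 20 in shNC_ATRA and 20 and 24 in shKDM3B_ATRA. Against a limit of 3 counts per library in shKDM3B, NOX1 was at least 7.91-fold and NOXO1 at least 18.4-fold higher in shKDM3B_ATRA. Both genes were highest in the 3 libraries with about 50% of pairs outside genes, and the part of that share in these counts was not tested.

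The genes whose pattern over the 8 libraries lay nearest each oxidase gene were ranked by the root mean square (RMS) difference in centred log2 CPM, among 8717 genes with a mean of at least 10 CPM. This is a description over libraries that differ in depth, in the share of pairs outside genes and in the names listed. PTPN6 (0.109), ARHGEF1 (0.109) and CORO1A (0.110) lay nearest CYBA, and TYROBP (0.134), TGFA (0.184) and C10orf128 (0.226) nearest CYBB. CDH23 (0.202), PADI4 (0.228) and the copy NCF1B (0.231) lay nearest NCF1, SMIM3 (0.107), SCNM1 (0.167) and TK2 (0.173) nearest NCF4, and WARS (0.0699), LRP10 (0.109) and DEF8 (0.116) nearest RAC2. Between the oxidase genes themselves the difference was smallest for CYBA and RAC2 (0.321) and largest for NCF1 and NCF4 (2.82), with only 4 other oxidase genes to compare against 8717 in all. CORO1A, an actin-binding protein of leukocytes, had mean levels of 666, 535, 1289.7 and 836 CPM in shNC, shKDM3B, shNC_ATRA and shKDM3B_ATRA, and PADI4, the enzyme that citrullinates histones in neutrophils, had 6.04, 2.98, 348 and 159.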

How the data were processed

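RNA of 8 NB4 libraries in 4 groups, grouped by the sample labels, was prepared with a TruSeq kit and sequenced as 150-base read pairs. Per the study's methods, the authors used Trim Galore for trimming, HISAT2 for alignment to hg38 and HTSeq for counting on genes and DESeq2 for differential expression, and the submitters' processing notes also name Picard and SAMtools. The deposited files hold whole-number counts per gene, without normalization, and HTSeq summary lines, which held 29.8% to 62.2% of the pairs and were left out. The untreated files list 56470 names and the ATRA files 56609, of which 37526 are shared and carry 96.4% to 99.1% of the gene counts. Comparisons across treatment used the shared names only.

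Each pair of groups was fitted on all its genes with edgeR 4.0.16 in R 4.3.3 (filterByExpr, TMM, quasi-likelihood F test), the difference of responses on all 8 libraries, and p-values were adjusted by Benjamini-Hochberg over all genes tested. The standard error was the size of the log2 fold change divided by the square root of F. A gene was called at P under 0.05 and at least 1.5-fold. With 2 libraries per group the smallest two-sided exact permutation p is 0.333, so none was used. Intervals of shares are exact (Clopper-Pearson) and cover counting error only. The fits were run on simulated counts in which no library was set apart by its share outside genes, and the outcome is not given here.

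The 5 genes, the lists and the tests were chosen with earlier results of these data known. The text names the 5 genes, KDM3B, the called genes of each list (the 3 with the largest change where over 6 were called) and the 3 nearest genes by pattern. Some genes of the pathway are not reported here. Positions and transcripts come from GENCODE v44 on hg38 and promoters from RefSeq. NCF4 and RAC2 had no promoter entry. Alternatives were other scalings, no low-count filter, DESeq2 1.42.0, adjusted p-values, 1 fit over all 8 libraries, a replicate block, NCF1 summed with its copies, and each library left out. The NCF1 level per kilobase summed with its copies and levels per kilobase of exon union were added after the data were seen. Whether same-numbered libraries pair was checked as the correlation of their deviations from the group means. Python 3.11.15, pandas 2.3.3, numpy 2.4.6, scipy 1.17.1 and matplotlib 3.10.9 were used for tables and plots.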

Additional observations from a re-analysis of the deposited data

Results flagged for a closer look

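A difference between control and knockdown cells in the response to ATRA, at P under 0.05 and at least 1.5-fold in edgeR's quasi-likelihood test over all 8 libraries, drew attention to 6 of 69 genes tested of the pathway lists, 2 higher and 4 lower, where 3.99% of all genes were called. On the log2 scale, the response in knockdown cells minus that in control cells was 6.24 for NOXO1, -0.83 for RAC3, -1.20 for CEBPB, 1.10 for MPO, -0.60 for PRDX2 and -0.80 for PRDX5. None of the 6 had an adjusted p under 0.05 (1.00 each in edgeR with Benjamini-Hochberg adjustment), and the value for NOXO1 rests on 0 counts in both shKDM3B libraries and is no bound.

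In the lines of the files that are not genes, the share of pairs aligned outside genes was taken over pairs on genes, outside genes and ambiguous between genes. It was 50.02% in shNC_ATRA replicate 2, 51.4% in shKDM3B_ATRA replicate 1 and 51.0% in shKDM3B_ATRA replicate 2, above the 8.49% to 9.62% of the untreated libraries.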

How the results depend on the processing

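Scaling moved the median log2 change of all genes by under 0.1 and changed no call of an oxidase gene, but the difference of ATRA responses for NCF1 changed sign to 0.040 with library size alone, 0.0077 with upper-quartile scaling and 0.14 when summed with its copies. It was also positive without shNC replicate 2 (0.21), shKDM3B replicate 2 (0.44), shNC_ATRA replicate 1 (0.29) or shKDM3B_ATRA replicate 1 (0.17), over a range from -0.32 to 0.44. RAC2 in untreated knockdown cells changed sign to 0.041 without shKDM3B replicate 1 (lowest -0.36). The cause was not tested.
By edgeR's adjusted p, knockdown called 0 genes higher and 3 lower without ATRA, 0 and 0 with it, and 0 oxidase genes in both; ATRA called 975 higher and 629 lower in control cells, and the difference of responses 0 and 0. By DESeq2's adjusted p the counts were 153 higher and 125 lower for untreated knockdown (2 oxidase genes), 121 and 236 for treated knockdown (3 oxidase genes), and 8 and 17 for the difference of responses (0 oxidase genes). Without the low-count filter, which tests more genes, 737 genes were called lower with untreated knockdown, and 366 higher and 575 lower in the difference of responses. With all 8 libraries in 1 fit, untreated knockdown called 313 genes higher.
Leaving out each library, genes called higher and lower ranged from 469 to 961 and 457 to 689 for untreated knockdown, 40 to 3409 and 94 to 1951 for treated knockdown, 900 to 2866 and 544 to 2276 for ATRA in control cells, and 121 to 1168 and 157 to 1264 for the difference of responses. Oxidase genes called lower ranged from 0 to 4 with treated knockdown and 0 to 1 in the difference of responses.
Same-numbered libraries correlated in their deviations at 0.389 for untreated knockdown, 0.0261 for treated knockdown, -0.0731 for ATRA in control and 0.183 for ATRA in knockdown cells, and with 2 pairs whether the numbers pair the libraries is undecided, so they were not treated as pairs. With a replicate block, treated knockdown called 179 genes higher and 346 lower, and 1 oxidase gene, CYBB. The block changed no other call of an oxidase gene. At 91 counts and above, depth did not keep any of the 5 genes from being tested.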
